A study of Capra hircus with 3 samples.

Results

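Pigment cell genes were examined in the skin of Arbas Cashmere goats as the array spots, controls left out, named for or described as a pigment gene: tyrosinase, its relatives and matrix proteins, the melanocortin and KIT receptors, their ligands, or MITF. This rule found 18 of 15208 spots, which carry 14 of 15008 probes for 8 genes of the 14363 sheep records with a probe. They are the enzyme TYR, the receptors MC1R, MC2R and KIT, and the ligands or ligand precursors POMC, ASIP, AGRP and KITLG. Of the 13 gene names in the rule, 6 had a probe, and MC2R and AGRP entered through their descriptions. TYRP1, DCT, MITF, PMEL, SILV, MLANA and EDNRB had 0 probes under those names and are not analysed here as members. A sheep name for the endothelin B receptor, ETBR, is on the array and is described with the pathway genes.

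The skin came from 6 adult female Arbas Cashmere goats, 2 years old. The 3 short photoperiod goats grazed outdoors for part of the day and stood in a dark shed otherwise, while the 3 natural photoperiod goats grazed under natural conditions. RNA of whole skin from 1 side of the body was hybridised to 3 Agilent sheep arrays, so sheep probes measured goat RNA. Each array held 1 short photoperiod goat in Cy5 and 1 natural photoperiod goat in Cy3. By the paper's account each short photoperiod goat was compared with a goat of the same parent, while its methods describe a random division into groups. The sample labels do not give the parentage. The paper describes the breed as a white Cashmere goat. Dyes were swapped on 0 arrays, so each ratio holds the dye bias of its probe, which cannot be told apart from the photoperiod. The median spot intensity was 4587 to 7120 in Cy5 and 2688 to 3911 in Cy3, and the log2 ratios of the arrays correlated with r = 0.18 to 0.36 over 14868 probes. A log2 ratio above 0 is a higher level under the short photoperiod, after loess normalization within the array. Each probe was tested with limma against 0, and p was adjusted over 14977 probes by the Benjamini-Hochberg method.

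Melanocytes of the hair bulb make melanin while a follicle is in anagen and pass it to the growing hair shaft. Tyrosinase catalyses the first and limiting step. MC1R on the melanocyte responds to melanocortin peptides, which are cut from the POMC precursor, and agouti signalling protein opposes them at the same receptor, shifting the pigment from eumelanin to pheomelanin. KIT and its ligand, stem cell factor (KITLG), guide the migration and survival of pigment cells, and mast cells in the dermis depend on them as well.

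The probes are 60 bases long, and a gene has 2 of them except MC1R and MC2R, which have 1. The probes of a gene are named a and b by their order in the sheep record from which they were designed. Their sequences show how far a pair of probes measures the same stretch, and capitals mark the bases that a and b share.
POMC-a, bases 731 to 790: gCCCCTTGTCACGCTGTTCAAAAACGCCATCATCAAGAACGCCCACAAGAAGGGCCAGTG
POMC-b, bases 732 to 791: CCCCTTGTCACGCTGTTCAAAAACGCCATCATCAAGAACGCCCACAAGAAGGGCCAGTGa
TYR-a, bases 565 to 624: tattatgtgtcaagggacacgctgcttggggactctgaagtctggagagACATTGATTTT
TYR-b, bases 614 to 673: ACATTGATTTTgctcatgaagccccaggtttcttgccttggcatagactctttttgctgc
KIT-a, bases 185 to 244: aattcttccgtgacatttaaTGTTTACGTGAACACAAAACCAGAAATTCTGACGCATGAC
KIT-b, bases 205 to 264: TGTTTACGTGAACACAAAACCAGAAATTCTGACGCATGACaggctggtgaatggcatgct
KITLG-a, bases 639 to 698: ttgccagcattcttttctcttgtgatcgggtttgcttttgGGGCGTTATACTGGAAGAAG
KITLG-b, bases 679 to 738: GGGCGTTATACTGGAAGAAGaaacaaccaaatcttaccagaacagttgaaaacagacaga
The POMC probes share 59 of 60 bases, the AGRP probes 52, the KIT probes 40, the KITLG probes 20 and the TYR probes 11. Agreement within the POMC, AGRP or KIT pair is therefore not a second measurement of the gene. The KITLG and TYR pairs are separate only in part. The ASIP probes start 374 bases apart and share 0 bases. MC1R is read by the single sequence below, which is printed on 5 spots of each array, so its spots are repeats of 1 probe.
MC1R, bases 903 to 962: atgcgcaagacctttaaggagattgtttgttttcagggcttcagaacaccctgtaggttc
How far a probe discriminates between related receptors or between sheep and goat sequence was not tested. The goat annotation table holds a gene of the same symbol for 7 of the 8 genes, all but MC1R. The array files give no genome build, so no position is given.

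In Cy5 and in Cy3, the signal of all 14 probes was well above background on every array, as was that of 13586 of the 15008 probes, and 0 member spots were saturated. Their distance from background differed widely. MC1R, MC2R, KIT and AGRP spots read 4.91 to 13.9 times their local background, whereas TYR and KITLG read 24.9 to 89.0 times, POMC 52.4 to 160.4 times and ASIP 705 to 3062 times. These multiples describe how securely each probe was read and do not order the genes by expression. Of the melanocyte markers looked for, 3 of 9 genes (TYR, KIT and ETBR) had probes, with a summed normalized level of 3704 to 6411 under the short and 4220 to 5956 under the natural photoperiod. The samples are whole skin, so fewer cells of a type and less RNA per cell cannot be told apart.

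None of the members passed the test over the array. With limma, 0 of 14 probes had an adjusted p under 0.05 (0.00668% of all tested probes did), with adjusted p between 0.157 and 0.891, and 3 had an unadjusted p under 0.05 (18.5% of all). A mean change of 2-fold was reached by 0 probes (0.855% of all). On all 3 arrays 2 probes were higher (21.5% of all) and 3 were lower (22.1% of all). The normalized levels of the 3 short and 3 natural photoperiod goats were separate for 0 of the 14 (13.8% of all). The mean log2 ratios ran from -0.43 to 0.74 with a median of -0.15, against -0.01 over all tested probes. Of the 14 means, 4 were above 0 (48.8% of all tested probes) and 10 were below. These 10 were the probes of TYR, MC1R, MC2R, KIT, ASIP and AGRP, most of them in pairs for the same gene.

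**Figure D1:**
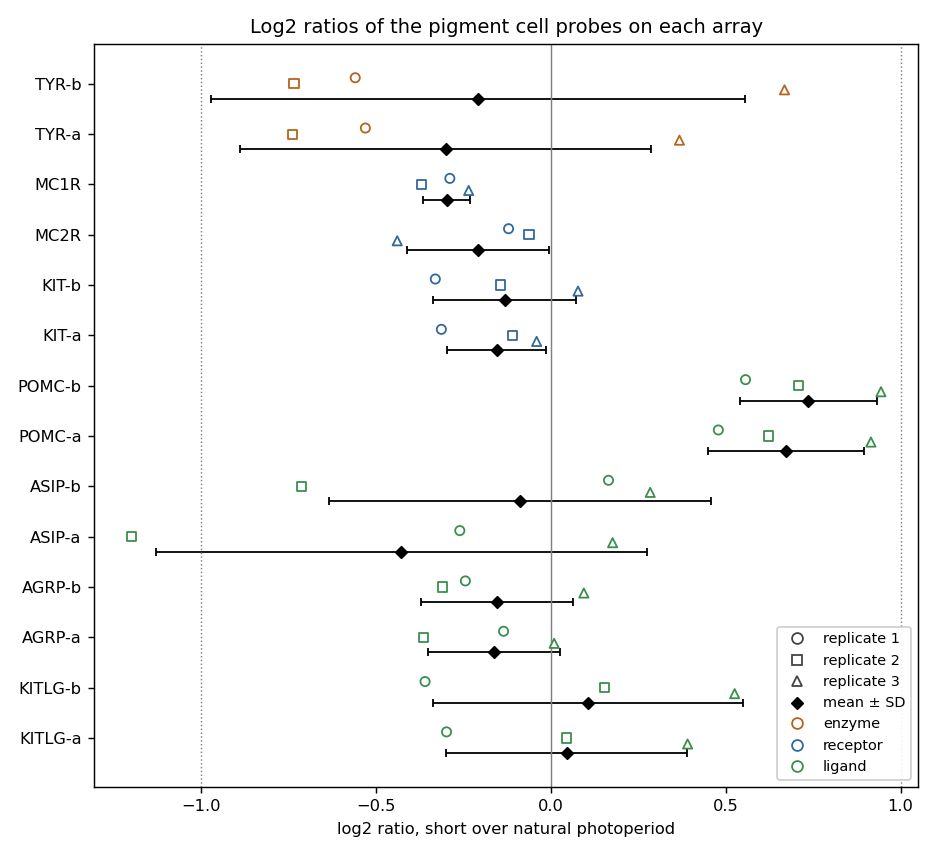
Log2 ratio of short over natural photoperiod (x axis) for each of the 14 probes (y axis). Open symbols are the 3 arrays, coloured by role, black diamonds with bars are the mean ± SD, and dotted lines mark a 2-fold change. The POMC probes lie above 0 on every array (0.48 to 0.94), MC1R and MC2R lie below 0 on every array, and TYR, ASIP and KITLG lie on either side.

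The enzyme was read by the TYR probes, which cover neighbouring stretches. Normalized log2 levels of TYR-a were 10.995, 10.04 and 11.02 in the short photoperiod goats of replicates 1, 2 and 3, and 11.53, 10.78 and 10.66 in their natural photoperiod partners. For TYR-b they were 10.004, 9.45 and 10.73 against 10.56, 10.18 and 10.06. TYR was lower under the short photoperiod in pairs 1 and 2 and higher in pair 3, and the groups overlapped. The log2 ratios averaged over the probes were -0.55, -0.74 and 0.52, a mean of -0.25 ± 0.68 (SD, n = 3). Neither probe passed limma's test (TYR-a -0.30, adjusted p = 0.529; TYR-b -0.21, adjusted p = 0.729). Replicate 3 set the size of the mean, since without it TYR-a was at -0.63 and TYR-b at -0.65, and without replicate 2 TYR-b was at 0.05.

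Among the receptors, MC1R gave the most even ratios over the arrays. Its normalized log2 level was 8.05, 7.91 and 7.74 in the short and 8.34, 8.28 and 7.97 in the natural photoperiod goats. Each short photoperiod goat lay below its partner, while the groups overlapped, because the natural photoperiod goat of pair 3 lay below the short photoperiod goat of pair 1. The log2 ratios were -0.29, -0.37 and -0.24, a mean of -0.30 ± 0.07 (SD, n = 3) or a fold change of 0.813, with a 95% interval from -0.55 to -0.05. Limma gave an unadjusted p of 0.0275 and an adjusted p of 0.227. The SD over the single spots of MC1R within an array was 0.12, 0.06 and 0.12. The SD of 0.07 between the arrays is of means over 4 or 5 spots, so it is not set against the SD of single spots. Each probe of MC2R and KIT has 1 spot, which also limits the comparison of evenness among the receptors. On replicate 3, 1 of the 5 spots carried an outlier flag and was left out, and in Cy5 the signal of 4 of the 5 cleared the background.

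MC2R, the receptor for corticotropin, which is likewise cut from POMC, had levels of 7.68, 7.85 and 7.57 in the short and 7.80, 7.91 and 8.01 in the natural photoperiod goats. All 3 pairs were lower under the short photoperiod, by -0.12, -0.06 and -0.44 on the log2 scale. The mean was -0.21 ± 0.20 (SD, n = 3, limma adjusted p = 0.406), and it was -0.09 without replicate 3.

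KIT is the receptor tyrosine kinase of melanoblasts and mast cells. KIT-a stood at 7.68, 7.86 and 8.29 under the short and 7.997, 7.97 and 8.33 under the natural photoperiod, and KIT-b at 8.05, 7.91 and 8.09 against 8.38, 8.06 and 8.01. The groups overlapped for both probes, and the difference of pair 3 was near 0. The log2 ratios averaged over the probes were -0.32, -0.13 and 0.02, with a mean of -0.14 ± 0.17 (SD, n = 3). Limma's adjusted p was 0.477 for KIT-a and 0.582 for KIT-b. Without replicate 1, the means were -0.08 and -0.03.

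POMC was the member with the largest mean log2 ratio. POMC-a had normalized log2 levels of 12.61, 11.74 and 12.04 in the short and 12.13, 11.12 and 11.13 in the natural photoperiod goats. Those of POMC-b were 12.34, 11.56 and 11.94 against 11.79, 10.85 and 10.99. Every short photoperiod goat lay above its partner, but the natural photoperiod goat of pair 1 lay above the short photoperiod goat of pair 2, so the groups overlapped.

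The log2 ratios of POMC were 0.48, 0.62 and 0.92 for POMC-a and 0.56, 0.71 and 0.94 for POMC-b. Averaged over the probes, the mean was 0.70 ± 0.21 (SD, n = 3), a fold change of 1.63. In limma's fit POMC-a had a mean of 0.67 with a 95% interval from 0.35 to 0.99 (unadjusted p = 0.00304), and POMC-b 0.74 with an interval from 0.43 to 1.04 (unadjusted p = 0.00162). The adjusted p of each was 0.157, so POMC did not pass the test over the array. Among all tested probes the means of POMC-a and POMC-b lay at percentiles 98.2 and 98.7. With any 1 array left out they stayed between 0.55 and 0.83.

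**Figure D2:**
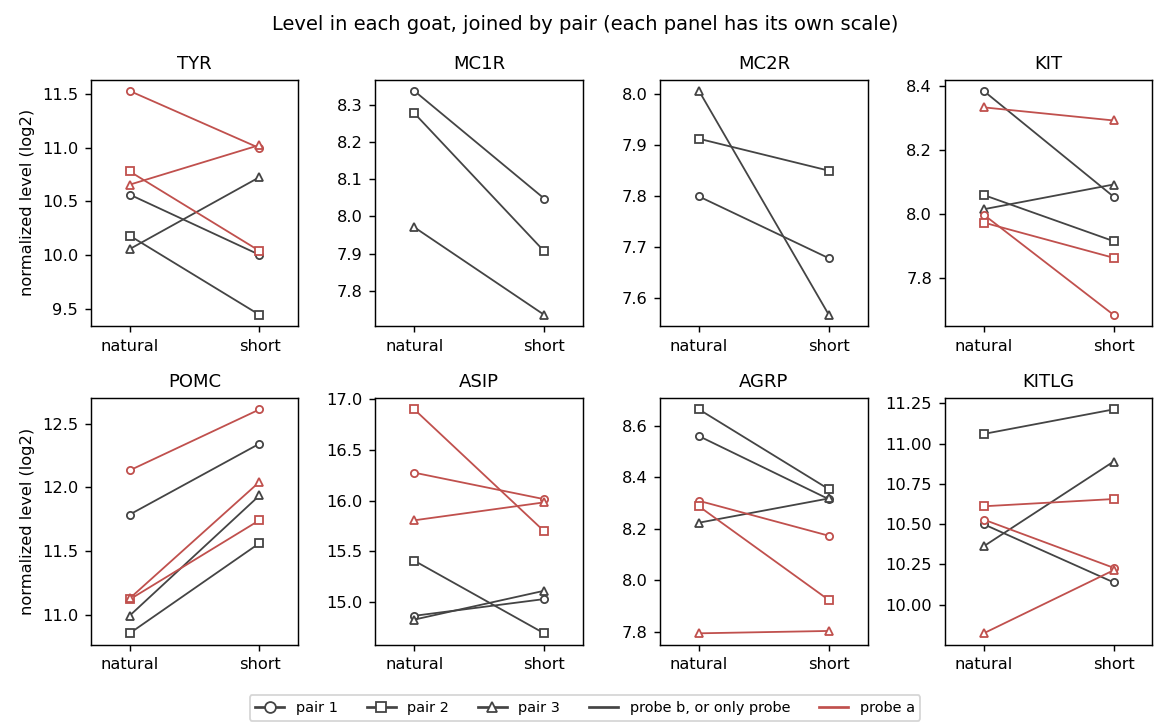
Normalized log2 level of each goat (y axis, its own scale in each panel) under the natural and the short photoperiod (x axis), with a line for each pair. Probe a is red, and probe b or an only probe is dark. The lines of POMC rise in all 3 pairs, those of MC1R and MC2R fall in all 3, and those of TYR, ASIP and KITLG run in both directions.

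ASIP, the agouti signalling protein made by dermal cells, varied most among the ligands. ASIP-a was at 16.01, 15.70 and 15.98 in the short and 16.27, 16.90 and 15.81 in the natural photoperiod goats, and ASIP-b was at 15.03, 14.69 and 15.11 against 14.87, 15.41 and 14.83. Pair 2 was lower under the short photoperiod with both probes, pair 3 was higher, and pair 1 differed in sign between the probes. The log2 ratio of ASIP-a on replicate 2, -1.20, was the only value of any member past 2-fold on a single array. Averaged over the probes the ratios were -0.05, -0.96 and 0.23, with a mean of -0.26 ± 0.62 (SD, n = 3), and limma's adjusted p was 0.449 for ASIP-a and 0.848 for ASIP-b. Without replicate 2, ASIP-a was at -0.04 and ASIP-b at 0.22. The direction also rested on the scaling, since with median centring in place of loess ASIP-a was at 0.51 and ASIP-b at 0.42.

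AGRP, agouti-related protein, is a relative of ASIP known from the hypothalamus, where it opposes melanocortins at other receptors of the family. AGRP-a was at 8.17, 7.92 and 7.80 in the short and 8.31, 8.29 and 7.79 in the natural photoperiod goats, and AGRP-b was at 8.32, 8.35 and 8.32 against 8.56, 8.66 and 8.22. The groups overlapped, with lower levels under the short photoperiod in pairs 1 and 2 and slightly higher ones in pair 3. Its mean log2 ratio over the probes was -0.16 ± 0.20 (SD, n = 3), with limma's adjusted p at 0.490 for AGRP-a and 0.536 for AGRP-b.

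KITLG, stem cell factor, is made by keratinocytes and dermal cells. KITLG-a was at 10.23, 10.66 and 10.21 under the short and 10.53, 10.61 and 9.82 under the natural photoperiod, and KITLG-b at 10.14, 11.21 and 10.89 against 10.50, 11.06 and 10.36. The short photoperiod goat was the lower of pair 1 and the higher of pairs 2 and 3. Over the probes the log2 ratios were -0.33, 0.10 and 0.46, a mean of 0.08 ± 0.39 (SD, n = 3). Limma's adjusted p was 0.891 for KITLG-a and 0.786 for KITLG-b. Without replicate 3 the means turned to -0.13 and -0.10.

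Enzymes, receptors and ligands were compared by their log2 ratios, each gene weighted equally within its class. The receptor mean was nearly the same on each array, at -0.24, -0.19 and -0.22 (-0.22 ± 0.03, SD, n = 3). Its genes were less even than their mean. MC2R was at -0.12, -0.06 and -0.44 and KIT at -0.32, -0.13 and 0.02, which offset each other in the average. Ligands gave -0.01, -0.13 and 0.42 (0.09 ± 0.29) and the enzyme -0.25 ± 0.68. The ligand mean exceeded the receptor mean on every array, by 0.23, 0.05 and 0.64 (0.31 ± 0.30), and without replicate 3 the difference was 0.14. This direction on every array rested on POMC, since ASIP, AGRP and KITLG alone differed from the receptors by 0.05, -0.21 and 0.47 (0.10 ± 0.34), a comparison added after the values were seen. With POMC kept, ligands minus receptors was 0.40 with normexp at offset 0 and 0.45 with processed signals. Ligands minus enzyme came to 0.53, 0.60 and -0.10 (0.35 ± 0.39), with 0.57 without replicate 3 and 0.22 without replicate 2. Receptors minus enzyme came to 0.30, 0.55 and -0.74 (0.04 ± 0.68), so its sign turned with the array. It was 0.43 without replicate 3, -0.22 without replicate 2 and -0.09 without replicate 1. Processing turned it too, to -0.17 with median centring, -0.05 with normexp at offset 0 and -0.10 with processed signals. KITLG minus its receptor KIT was -0.01, 0.23 and 0.44 (0.22 ± 0.22), and ASIP minus MC1R, at which it acts, was 0.24, -0.59 and 0.47 (0.04 ± 0.55). With 3 arrays the smallest p of a two-sided exact sign test is 0.25, and none of these differences was tested.

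**Figure D3:**
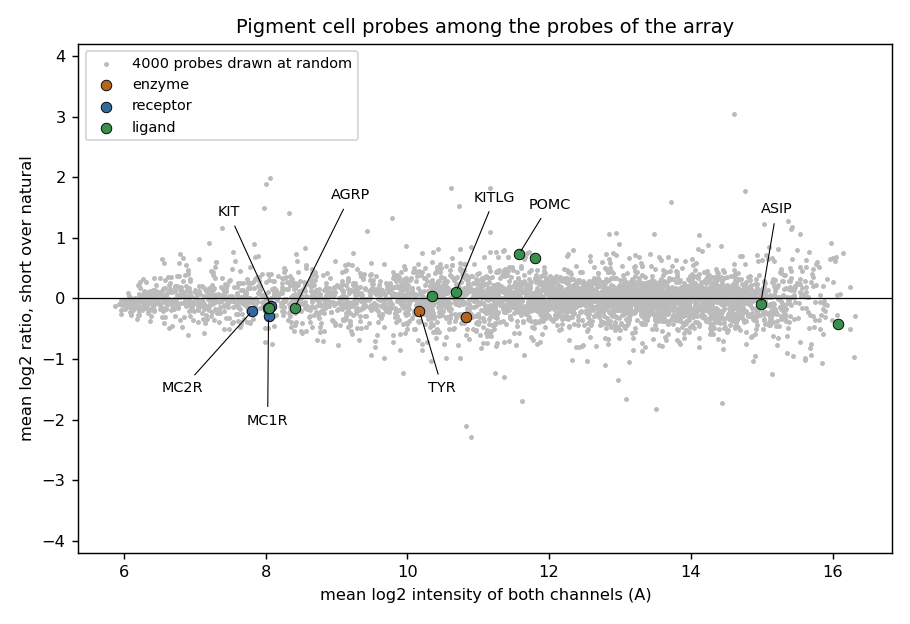
Mean log2 ratio over the 3 arrays (y axis) against the mean log2 intensity of both channels (x axis). Grey points are 4000 probes of the array drawn at random, and coloured points are the 14 member probes by role, with 1 probe of each gene labelled. The POMC points (0.67 and 0.74) lie above most grey points of their intensity, and the other members lie within the cloud.

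Other genes of pigment cell biology were taken from 5 lists with 125 genes, of which 14 had probes on the array. Of these 21 probes, 20 were measured, with a signal well above background in Cy5 and Cy3 on each array. None passed limma's test after adjustment (0 of 21, against 0.00668% of all tested probes) and 0 changed 2-fold (0.855% of all), while 10 had an unadjusted p under 0.05 (18.5% of all).

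Of those 10 probes, 8 belonged to the list of pigment transcription factors and melanoblast genes, which had 5 of 20 genes on the array. In this list 7 probes were higher (21.5% of all) and 1 lower (22.1% of all) on all 3 arrays, and the median of their means was 0.39. These 8 probes stand for 5 genes, since ETBR, SNAI2 and ECE1 have 2 each. ETBR, the endothelin B receptor that melanoblasts need for migration, had the largest ratios, and its probes share 20 of 60 bases. ETBR-a had log2 ratios of 0.48, 0.93 and 1.03 (0.81 ± 0.29, SD, n = 3, limma adjusted p = 0.157), and ETBR-b had 0.23, 0.85 and 1.09 (0.73 ± 0.44, adjusted p = 0.190). The short photoperiod was the higher in all 3 pairs for this receptor. TYR and KIT, the other melanocyte markers with probes, had means below 0, at -0.25 and -0.14 over their probes. In whole skin, the cell types behind the ratios of this list were not tested.

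Its ligand endothelin-1 (EDN1) was at 0.37 ± 0.11 (adjusted p = 0.201), and the converting enzyme ECE1, which cuts endothelins from their precursors, was at 0.30 and 0.34 with its probes (adjusted p = 0.226 and 0.202). SNAI2, a transcription factor of the neural crest, was at 0.42 and 0.44 (adjusted p = 0.202 and 0.201). The member of the list with the lowest ratio was the growth factor neuregulin (NRG1), at -0.28, -0.50 and -1.02 (-0.60 ± 0.38, adjusted p = 0.202). All adjusted p-values here are limma's over the whole array.

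In the melanocortin pathway list, 4 of 27 genes had probes. The catalytic subunit of protein kinase A, PRKACA, which acts downstream of melanocortin receptors, was higher on all 3 arrays at 0.51 ± 0.12 and 0.59 ± 0.24 (SD, n = 3, limma adjusted p = 0.164 and 0.166). Its regulatory subunit PRKAR1A was at -0.07 ± 0.01 (adjusted p = 0.719), and carboxypeptidase E (CPE), which trims peptides cut from POMC and other prohormones, was at -0.85, 0.32 and 0.52 with 1 probe and at -0.92, 0.28 and 0.56 with the other. The corticotropin-releasing hormone receptor CRHR1 did not reach this level of signal on every array. The lists of melanosome genes and of KIT signalling had 0 probes with an unadjusted p under 0.05 in limma's fit. Their means were -0.09 and -0.05 for cathepsin D (CTSD), -0.11 for both CNO and DTNBP1 of the BLOC-1 complex, 0.05 for AKT1 and -0.20 and -0.16 for STAT5A.

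**Figure D4:**
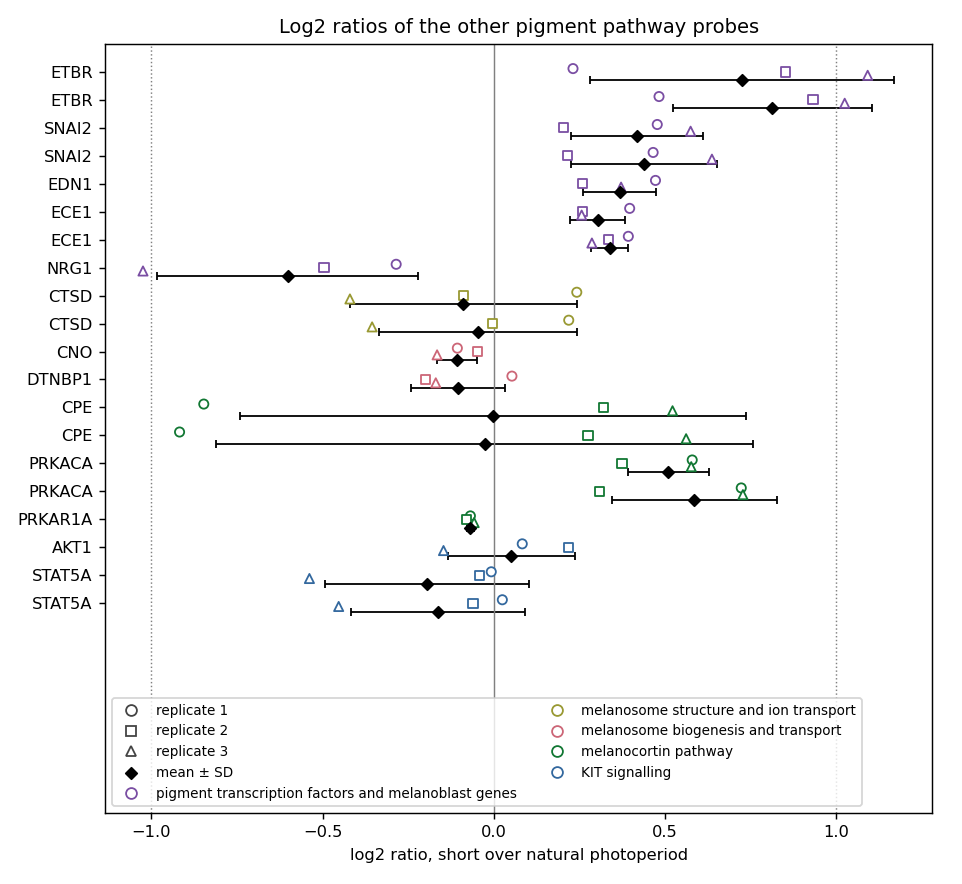
Log2 ratio of short over natural photoperiod (x axis) for the 20 measured probes of the 5 pathway lists (y axis, a gene with 2 probes has 2 lines). Open symbols are the 3 arrays, coloured by list, and black diamonds with bars are the mean ± SD. ETBR, SNAI2, EDN1, ECE1 and PRKACA lie above 0 on every array and NRG1 lies below 0, while CPE is divided between replicate 1 and the others.

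Markers of other skin cells moved on the same arrays, and their part in the members' ratios was not tested. Of 9 mast cell genes, 3 had probes (KIT, MS4A2 and FCER1A), and the summed level was 34174 to 44779 under the short and 50887 to 55916 under the natural photoperiod. Most of this sum came from the FCER1A probes, at log2 levels of 13.96 to 14.74. MS4A2 stood at 9.42 to 11.33 and KIT at 7.68 to 8.38. Among single probes of the array, 13.8% had levels of the groups that did not overlap. FCER1A, the high affinity IgE receptor, was at -0.49 and -0.46 (limma adjusted p = 0.199 and 0.227), and MS4A2 was at -1.49 on replicate 1, 0.10 on replicate 2 and -0.05 on replicate 3. TRYPTASE-1, a mast cell protease under a name that the list did not hold, was at -0.41, 0.03 and 0.53 with 1 probe and -0.26, 0.17 and 0.71 with the other, so it was not lower on every array as FCER1A was. Its level is left out of the sum. With the first probe it was 15482 to 20909 under the short and 10759 to 27797 under the natural photoperiod, and with the other 12047 to 15497 against 7362 to 18614, so its groups overlapped. The leukocyte list had 4 of 6 genes on the array, of which CD4 was not well above background in both channels on every array. Its 6 measured probes, for the 3 genes CD14, CD3E and LYZ, were all lower on all 3 arrays (22.1% of all probes were). Their median was -0.43, with CD3E at -0.71 and -0.35, LYZ at -0.54 and -0.49 and CD14 at -0.37 and -0.33. None passed the test (limma adjusted p = 0.157 to 0.242). The summed level was 58638 to 70779 under the short and 82961 to 98063 under the natural photoperiod, again without overlap (13.8% of all single probes). Neural crest glia were represented by PMP22 alone, 1 of 7 Schwann cell genes, at -0.34 ± 0.11.

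Keratinocytes, which make KITLG, had 2 of 10 marker genes on the array, of which KRT5 kept a value on replicate 1 alone (1.34) after outlier spots were left out. KRT14, with a normalized level of 71592 to 86320 under the short and 36538 to 67038 under the natural photoperiod, was at 1.24, 0.62 and 0.09 (0.65 ± 0.57, limma adjusted p = 0.247). The levels of its groups did not overlap, as for 13.8% of all probes. The fibroblast and dermal papilla list had 4 of 12 genes. Without VIM, whose spots were left out as outliers on replicate 3, its summed level was 126155 to 139733 under the short and 108833 to 152598 under the natural photoperiod. COL3A1 was the lowest of the list at -0.60 and -0.62 and DCN the highest at 0.03 and 0.13, and COL1A1 was at -0.73, -0.88 and 0.37, with the signs that TYR had on each array. Blood was represented by HBB, 1 of 3 genes, with a summed level of 4095 to 7493 against 2001 to 19922. Its probes were at -2.11 and -1.96 on replicate 2 and above 0 on the other arrays. Replicate 2 was also the array on which ASIP, TYR, MC1R and AGRP were lowest, while MC2R, KIT, POMC and KITLG were lowest on another array. A link with blood was not tested. Skeletal muscle markers had 0 of 6 genes on the array.

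The gene names whose 3 ratios lay closest to each member were found by the root mean square difference over the 3 arrays among 1367 named probes measured in both channels. Likeness over 3 arrays is a description of these arrays. For POMC they were LOC100101228, LOC100125610 and TSHR, the thyrotropin receptor, at distances of 0.06 to 0.09, and TSHR had ratios of 0.58, 0.69 and 0.80. For TYR they were COL1A1, MCP-3 and LOC100191035, at distances of 0.16 to 0.19. CTNNBL1, SLC25A4 and CREM were the nearest to MC1R (0.03 to 0.07), ITGA5, IL15 and PDGFB to MC2R (0.02 to 0.05), and RABAC1, CA11 and ACVR1 to KIT (0.03 to 0.04). The nearest to ASIP were CYB5A, IL2RA and PTPLA (0.11 to 0.19), and those to AGRP were CD247, LDHA and TLR5 (0.06 to 0.07). KITLG had ERBA BETA1 at 0.02, TRYPTASE-1 at 0.07 and RAB21 at 0.09.

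How the members' values moved with the processing differed by gene. POMC and the receptors kept their signs under all 13 alternatives, POMC-a between 0.55 and 0.77, POMC-b between 0.63 and 0.83, and MC1R between -0.60 and -0.26. Not all 13 could turn a sign. The eBayes fit with trend and robust, the separate channel fits and the filter for signal above background left every member mean unchanged. Keeping outlier spots moved MC1R alone, and the value table nearly repeated the processed signals. Median centring in place of loess was the alternative under which 4 of the 14 member probes had an adjusted p under 0.05 in limma's fit. They were POMC-a (0.0411), POMC-b (0.0357), MC1R (0.0369) and KIT-a (0.0491), and 1885 of 14977 tested probes were called over the array. Over all alternatives the adjusted p of POMC-b ranged up to 0.653, that of POMC-a up to 0.720, that of MC1R up to 0.777 and that of KIT-a up to 0.958.

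**Figure D5:**
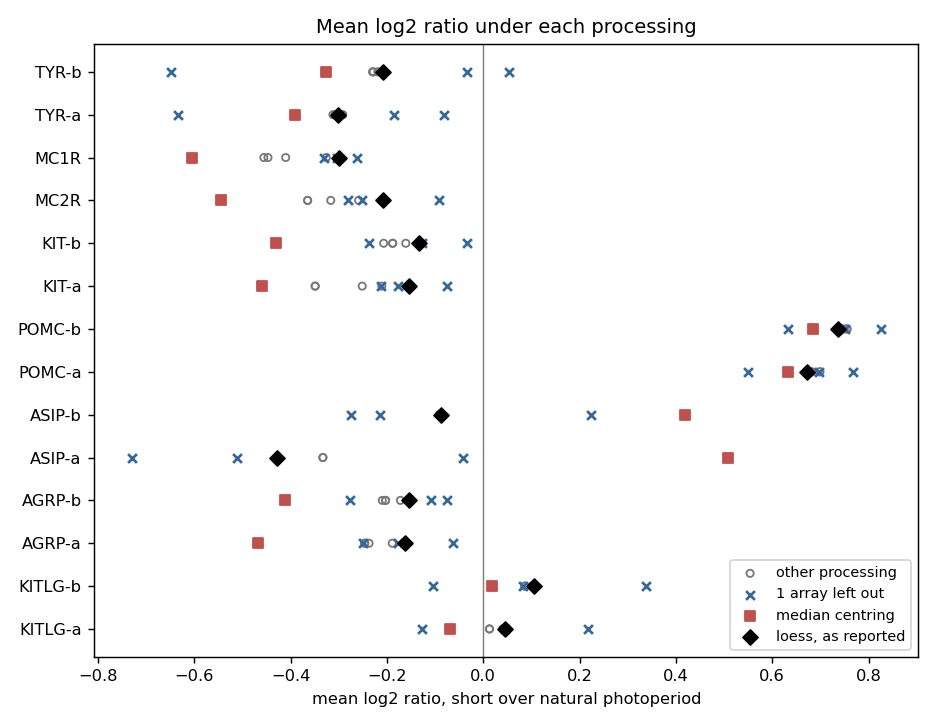
Mean log2 ratio of each member probe (x axis, short over natural photoperiod; y axis, probe) as reported with loess (black diamonds), with median centring (red squares), with 1 array left out (blue crosses) and under the other ways of processing (grey circles). POMC, MC1R, MC2R, KIT and AGRP stay on 1 side of 0, whereas ASIP, KITLG and TYR-b cross it.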

How the data were processed

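Skin RNA of 6 goats was measured on 3 two-colour Agilent sheep arrays (1 slide, 1 scan). The deposited scanner files hold spot and background intensities that the authors obtained with Agilent Feature Extraction 10.7.3.1, not normalized, and processed intensities with background subtracted and dyes normalized. The authors' deposited value table gives log2 ratios (Cy5 to Cy3). Of 14958 probes, 99.96% to 100% had there, within 0.001, the ratio that the processed intensities give.

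Spot means and background medians were corrected with normexp (offset 50) in R 4.3.3 with limma 3.58.1. After removal of control spots each array was normalized by loess. Outlier-flagged spots were dropped, and repeated spots of a probe averaged. Probes with at least 2 arrays were tested against 0 with lmFit and eBayes, with Benjamini-Hochberg adjustment over all of them. Levels per goat are the separate channels after Aquantile normalization. Each array pairs 1 goat of each group, of the same parent per the paper. The number of arrays limits the precision.

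Every member is named. From each list, the probes past the test or past 2-fold were to be named, otherwise the highest and lowest mean, and EDN1, ECE1, SNAI2, CPE, CRHR1, MS4A2, KRT5, VIM and, among mast cell genes, TRYPTASE-1 were named after their values were seen. Neighbours are the 3 closest gene names of each member. Members and lists were chosen with earlier results of these data known. Figures were drawn with matplotlib 3.10.9.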

Additional observations from a re-analysis of the deposited data

How the results depend on the processing

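Of the means of the 14 probes under 13 alternatives each, those of POMC, MC1R, MC2R, KIT, AGRP and TYR-a kept their sign. The eBayes fit with trend and robust, the separate channel fits and the filter for signal above background could not change a member's mean. Median centring turned ASIP-a to 0.51, ASIP-b to 0.42 and KITLG-a to -0.069. With 1 array left out, TYR-b ran from -0.65 (without replicate 3) to 0.054 (without replicate 2), ASIP-b from -0.27 (without replicate 3) to 0.22 (without replicate 2), KITLG-a from -0.13 (without replicate 3) to 0.22 and KITLG-b from -0.10 (without replicate 3) to 0.34. The cause was not tested. Under median centring 4 of 14 member probes and 4 of 21 pathway probes were called, ligands minus receptors moved to 0.70 and ASIP minus MC1R to 1.07. Over the array, limma called 1 of 14977 tested probes, against 1885 of 14977 with median centring (1013 higher, 872 lower). It called 3 with processed signals, 14 in the value table and 0 with any 1 array left out. Each array pairs 2 goats, and separate channels with the replicate block (correlation within spots 0.615) called 156 probes, 1 of them a pathway probe, ETBR-a (adjusted p = 0.0454), while channels taken as unpaired called 0 with 1118 unadjusted p under 0.05. Probes past 2-fold numbered 128, against 371 with median centring, 200 with normexp at offset 0, 460 with processed signals, 474 in the value table and 159 to 290 with 1 array left out (290 without replicate 1, 208 without replicate 2). With 1 array left out, 1601 to 2427 probes had an unadjusted p under 0.05. Members past 2-fold numbered 0 under all 13 alternatives, including those that could not change a mean. With 3 arrays and no dye swap, the number of arrays limits all of these values.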
